A study of Homo sapiens with 10 samples.

Results

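The genes described here encode the enzymes and chaperones that modify and fold procollagen inside the cell, and a proteinase that trims it outside. They were chosen by symbol as 10 genes: the prolyl 4-hydroxylase subunits P4HA1, P4HA2 and P4HA3, the lysyl hydroxylases PLOD1, PLOD2 and PLOD3, the prolyl 3-hydroxylase P3H1 with its partner CRTAP, the chaperone SERPINH1, and the procollagen C-proteinase BMP1. Of the 14054 genes in the count table, 9 were members of this set, all 9 passed the filter on low counts, and PLOD1 was not analysed here. RNA came from MRC5, a human fetal lung fibroblast line, in 10 libraries. The fibroblasts of 5 libraries (1, 3, 5, 7 and 9) had received culture medium in which A549 cells had been kept without stretch, here called static medium. Those of the other 5 (2, 4, 6, 8 and 10) had received medium in which A549 cells had been stretched, here called stretch medium. A549 derives from a human lung adenocarcinoma and resembles alveolar epithelium. The sample descriptions give an exposure of 24 hours and the series design 6 hours, so the time is not settled. The labels name no untreated fibroblasts and no separate cultures, so the p-values below measure the spread between these libraries, which may be technical.

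Collagen chains are made in the endoplasmic reticulum (ER), where prolyl 4-hydroxylation stabilises the triple helix at body temperature. Lysyl hydroxylation provides the sites for later cross-links and sugar attachment, and SERPINH1, also called HSP47, binds the folded helix until it leaves the ER. After secretion the C-terminal propeptide is removed by BMP1, which allows fibrils to form. In lung fibroblasts this machinery carries the collagen output of wound repair and fibrosis.

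Several of these enzymes, among them P4HA1 and PLOD2, are known targets of the hypoxia-inducible factor HIF, whose response element can have the core ACGTG. That core was searched on both strands (CACGT on the other) in RefSeq promoters of build GRCh38.p14, from 250 bases before to 50 bases after a gene's start. Starts are those of the promoter entries. For the genes matched, each lies inside the gene position given below, and the windows of P4HA2, PLOD2 and PLOD3 lie wholly inside. Promoters were matched for 7 of the 9 genes measured, in 8 entries, and 3 of the 7 genes held the core. SERPINH1 had 2 entries with overlapping windows, and both held the same match. The background counts single entries rather than genes: 21.4% of 35116 promoters of the same length held the core. No match was part of the palindrome CACGTG. The stretches around the matches are printed, with the core in capitals, because they show which of the measured genes carry it near a start. They lie on the minus strand at chr10:73096918-73096982 (P4HA1) and chr3:146161296-146161414 (PLOD2), and on the plus strand at chr11:75562259-75562302 (SERPINH1).
P4HA1: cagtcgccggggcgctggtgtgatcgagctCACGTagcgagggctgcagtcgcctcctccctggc
PLOD2: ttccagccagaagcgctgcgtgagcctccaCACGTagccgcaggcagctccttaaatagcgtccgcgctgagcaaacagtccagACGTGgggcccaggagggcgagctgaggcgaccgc
SERPINH1: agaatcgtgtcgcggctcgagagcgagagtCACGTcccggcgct
In P4HA1 the match began 86 bases before the start. PLOD2 held 2 matches, beginning 200 and 146 bases before its start. In SERPINH1 the match began at base 37 after the first of its 2 annotated starts, and 184 bases before the second. The windows of P4HA2, PLOD3, P3H1 and CRTAP held no match to this form of the core, and other forms were not searched. A match is a description of the letters and not a binding site.

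No member differed between the media at the chosen threshold. In edgeR's quasi-likelihood test over 10968 genes, 0 of the 9 had an adjusted p under 0.05, against 0.0% of all genes. The smallest adjusted p among them was 0.339, for P4HA3. DESeq2 also called 0 of the 9, where it called 2.86% of the genes it gave an adjusted p, and limma-voom called 0 of the 9 against 0.00912% of genes. At an unadjusted edgeR p under 0.05 there were again 0 of the 9, against 16.4% of all genes. That count rested on single libraries: it was 1 without static 1 or without stretch 4 (P4HA3) and 2 without static 3 (P4HA3 and BMP1). The groups overlapped for each of the 9, whereas they did not overlap for 3.72% of all genes. The fitted log2 fold changes, stretch minus static medium, ran from -0.13 for CRTAP to 0.34 for P4HA3, with 7 of 9 above 0 (50.1% of all genes) and a median of 0.087 (0.00035 over all genes). These genes were measured with between 122 and 7946 counts per library. The median standard error (SE) of their fold changes was 0.11, against 0.16 over all genes. Their 95% intervals together spanned 0.768-fold for PLOD2 to 1.64-fold for P4HA3, so a doubling or halving lay outside each of them.

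**Figure D1:**
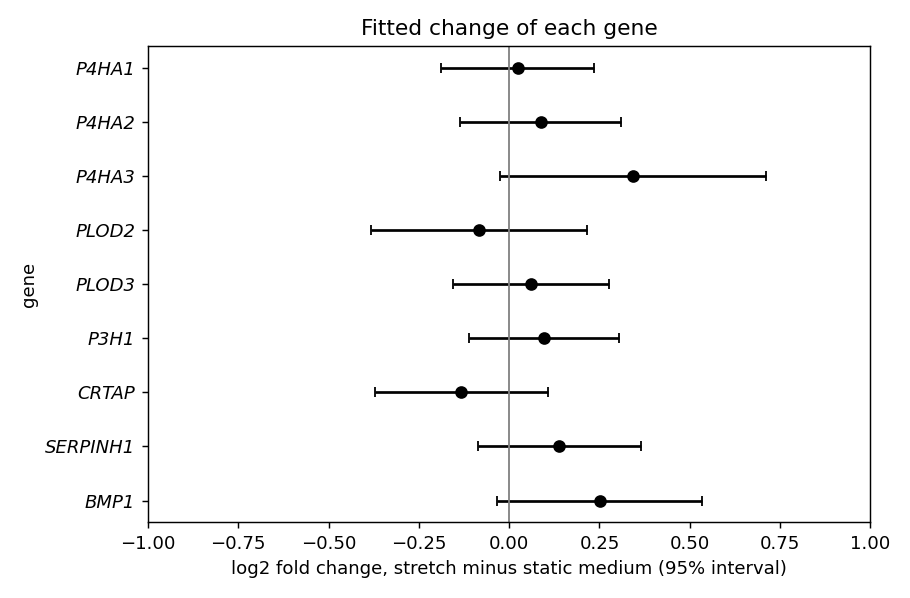
Fitted log2 fold change of each of the 9 measured genes, stretch minus static medium, with its 95% interval from edgeR (x axis, log2 scale; n = 5 libraries per medium). Each interval includes 0, and that of P4HA3 reaches from -0.026 to 0.71.

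Prolyl 4-hydroxylase is a tetramer in which a catalytic alpha subunit, from P4HA1, P4HA2 or P4HA3, pairs with the common beta subunit P4HB. Levels are given in CPM, counts corrected for sequencing depth with TMM factors, and are compared between libraries only, never between genes, because each gene is read through its own amplified target. P4HA3, a less studied alpha subunit (ENSG00000149380, chromosome 11, 74235801 to 74311657), was at 35.4, 33.8, 18.8, 24.8 and 23.9 CPM in static libraries 1, 3, 5, 7 and 9. In stretch libraries 2, 4, 6, 8 and 10 it was at 32.8, 28.9, 42.6, 30.2 and 38.2 CPM, and the values of other genes follow in the same order. Static 5, 7 and 9 lay below each stretch library, but static 1 and 3 lay inside the stretch range. The means were 27.3 ± 7.06 and 34.5 ± 5.76 CPM (SD, n = 5 each), for a log2 fold change of 0.34 ± 0.17 (SE) with an interval of -0.026 to 0.71. This was the highest fold change among the 9 genes. Across the alternatives it stayed between 0.23 and 0.44, with an edgeR, DESeq2 or limma-voom adjusted p of 0.223 to 0.562. It is also the member with the lowest counts, 122 to 310 per library, and its body overlaps PPME1 on the opposite strand. Whether counting used the strand is not given in the sources used here.

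P4HA1, the widely expressed alpha subunit (ENSG00000122884, chromosome 10, 73007217 to 73096974), stood at 80.9, 78.3, 79.0, 86.7 and 85.2 CPM in the static libraries and at 88.0, 83.7, 86.9, 70.7 and 87.8 CPM in the stretch ones. The values were close except for stretch 8, which was the lowest of the 10. The log2 fold change was 0.023 ± 0.10, its interval -0.19 to 0.24 (edgeR adjusted p = 0.931), and it lay between 0.0032 (without stretch 10) and 0.078 (without stretch 8). Its coefficient of variation with static medium, 4.56%, was below the median over all genes of 16.6%.

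P4HA2, the alpha subunit prominent in cartilage and bone cells (ENSG00000072682, chromosome 5, 132191838 to 132295315), was at 162, 156, 145, 141 and 183 CPM in the static libraries. In the stretch libraries its values were 171, 166, 190.1, 149 and 159 CPM. The ranges overlapped almost fully, with static 9 and stretch 6 as the high libraries of their groups. The log2 fold change was 0.087 ± 0.11 (interval -0.14 to 0.31, edgeR adjusted p = 0.714). It was 0.038 without stretch 6, 0.050 without static 7 and 0.15 without static 9. P4HA2 overlaps PDLIM4 and SLC22A4, both on the opposite strand.

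The shared subunit P4HB, a protein disulfide isomerase, was at 830.1 ± 128 CPM (static) and 766 ± 169 CPM (stretch), giving a log2 fold change of -0.12 ± 0.15 (edgeR adjusted p = 0.728). The balance of alpha subunits was followed as the log2 ratio of P4HA2 to P4HA1 counts within a library, which does not depend on scaling. It was 0.997, 0.996, 0.87, 0.70 and 1.10 with static medium and 0.96, 0.99, 1.13, 1.07 and 0.85 with stretch medium. The difference of 0.067 was smaller than the SD of either group, 0.15 and 0.11 (two-sided exact permutation p = 0.492, or 0.590 adjusted over the 6 ratios).

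**Figure D2:**
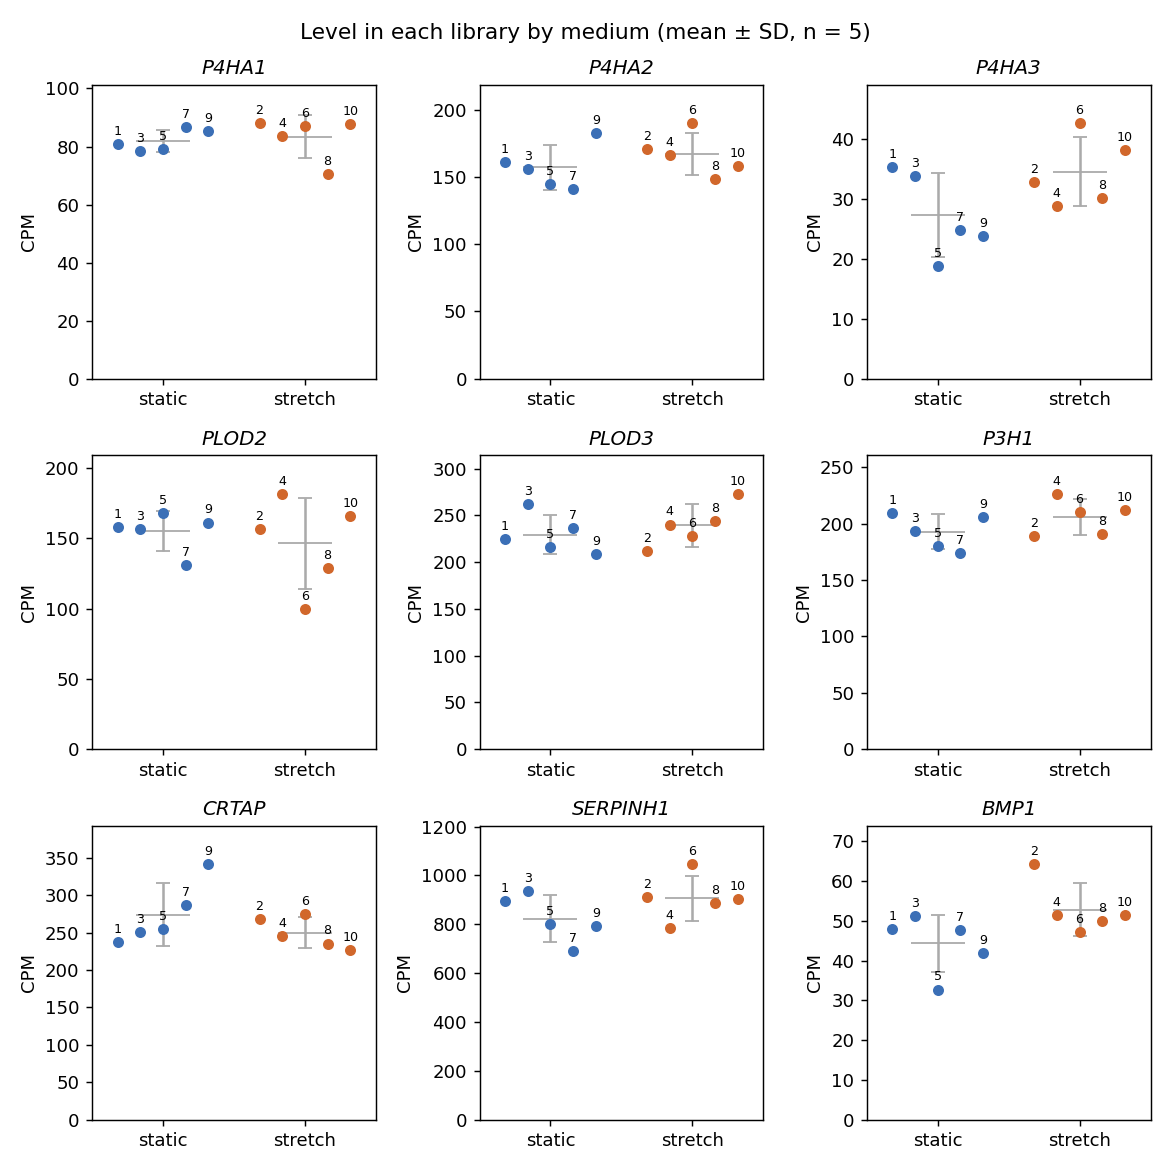
CPM of each of the 9 genes (y axes start at 0) in static (blue) and stretch (orange) libraries, with library numbers beside the points and grey bars for mean ± SD (n = 5 each). The groups overlap in each panel, and stretch 6 is the highest library for P4HA2, P4HA3 and SERPINH1 and the lowest for PLOD2.

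The lysyl hydroxylases differ in where they act: PLOD2 modifies the telopeptides, whose hydroxylysines form the stable cross-links of scar tissue, while PLOD3 modifies helical lysines and also attaches sugars. PLOD2 (ENSG00000152952, chromosome 3, 146069440 to 146163653) was at 158, 156, 168, 131 and 161 CPM in the static libraries and at 156, 182, 99.7, 129 and 166 CPM in the stretch ones. Stretch 6 and 8 were the lowest of the 10 libraries and stretch 4 the highest, so the stretch values enclosed those of the static group. The means were 155 ± 14.2 and 146 ± 32.4 CPM (SD, n = 5 each), and the log2 fold change was -0.083 ± 0.14 (interval -0.38 to 0.22, edgeR adjusted p = 0.812). Its sign rested on stretch 6: without that library the log2 fold change was 0.031 (edgeR adjusted p = 0.936).

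PLOD3 (ENSG00000106397, chromosome 7, 101205977 to 101218420) was at 224, 262, 216, 236 and 208 CPM in the static libraries. The stretch libraries held 212, 240.2, 228, 244 and 273 CPM. These ranges largely coincided, with a log2 fold change of 0.061 ± 0.10 (interval -0.16 to 0.28, edgeR adjusted p = 0.811) that ranged from 0.0080 without stretch 10 to 0.11 without static 3. PLOD3 overlaps ZNHIT1 on the opposite strand. The log2 ratio of PLOD2 to PLOD3 was -0.51, -0.75, -0.36, -0.85 and -0.37 with static medium. It was -0.44, -0.40, -1.19, -0.92 and -0.72 with stretch medium. The difference, -0.17, was within the spread (SD 0.22 and 0.33; two-sided exact permutation p = 0.373, or 0.560 adjusted over the 6 ratios), and -0.053 without stretch 6. This pair was chosen after the data were seen, in place of PLOD2 to PLOD1.

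P3H1 and CRTAP form a complex with the cyclophilin PPIB that 3-hydroxylates single prolines of the collagen I chains and assists folding, and loss of any of the 3 proteins causes brittle bone disease. P3H1, the catalytic subunit (ENSG00000117385, chromosome 1, 42746335 to 42767084), was at 209, 194, 180.0, 174 and 206 CPM in the static libraries and at 189, 227, 211, 191 and 212 CPM in the stretch libraries. CRTAP, the helper protein (ENSG00000170275, chromosome 3, 33113979 to 33147773), was at 237, 251, 255, 286 and 341 CPM in the static libraries. In the stretch libraries CRTAP stood at 268, 245, 275, 235 and 226 CPM. The 2 subunits had estimates of opposite sign, with ranges that overlapped for both. The log2 fold change was 0.096 ± 0.098 for P3H1 (interval -0.11 to 0.30, edgeR adjusted p = 0.659), and 0.058 without stretch 4 or 0.062 without static 7. For CRTAP it was -0.13 ± 0.11 (interval -0.37 to 0.11, edgeR adjusted p = 0.588), and -0.041 without static 9, the high library. PPIB, the third partner, was at 796 ± 95.1 and 719 ± 39.6 CPM, or -0.15 ± 0.10 (edgeR adjusted p = 0.483).

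The log2 ratio of P3H1 to CRTAP was -0.18, -0.37, -0.50, -0.72 and -0.73 in the static libraries and -0.50, -0.11, -0.38, -0.30 and -0.095 in the stretch libraries. Static 7 and 9 lay below the stretch libraries, static 5 was level with stretch 2, and static 1 and 3 lay among them. The mean difference was 0.22, about as large as the SD of the groups, 0.23 and 0.17 (two-sided exact permutation p = 0.127, or 0.381 adjusted over the 6 ratios).

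SERPINH1 (ENSG00000149257, chromosome 11, 75562056 to 75572783) was at 894, 937, 802, 689 and 793 CPM in the static libraries. In the stretch libraries it was at 910, 785, 1046, 886 and 905 CPM. Stretch 6 was the highest library and static 7 the lowest, and stretch 4 lay below 4 of the static libraries. The log2 fold change was 0.14 ± 0.11 (interval -0.087 to 0.37, edgeR adjusted p = 0.539). It was 0.082 without static 7 and 0.085 without stretch 6.

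COL1A1, the client chain against which SERPINH1 was set, was at 2749 ± 246 CPM (static) and 3211 ± 333 CPM (stretch), with n = 5 each (log2 fold change 0.22 ± 0.098, edgeR adjusted p = 0.273). The log2 ratio of SERPINH1 to COL1A1 was -1.63, -1.59, -1.74, -1.80 and -1.95 with static medium. It was -1.97, -1.87, -1.76, -1.71 and -1.81 with stretch medium. The ranges were nearly the same, with a difference of -0.082 (SD 0.14 and 0.10; two-sided exact permutation p = 0.333, or 0.560 adjusted over the 6 ratios).

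The log2 ratio of P4HA1 to COL1A1 had the smallest p of the 6 ratios. It was -5.10, -5.17, -5.08, -4.79 and -5.17 with static medium and -5.34, -5.10, -5.34, -5.36 and -5.18 with stretch medium. Stretch 2, 6 and 8 lay below each static library, while stretch 4 lay above static 3 and 9. Stretch 10 (-5.176) was about level with static 3 (-5.173) and static 9 (-5.170). The mean was lower with stretch medium by a log2 difference of -0.20 (SD 0.16 and 0.12; two-sided exact permutation p = 0.0317). It did not pass over the 6 ratios (exact permutation test, adjusted p = 0.190). Taken singly, the log2 fold change was 0.023 for P4HA1 and 0.22 for COL1A1. The partner chain COL1A2 was at -0.038 (named after its values were seen). Of the 8 fibrillar chains tested, 2 were above 0, COL1A1 and COL27A1, so this ratio does not stand for other client chains.

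**Figure D3:**
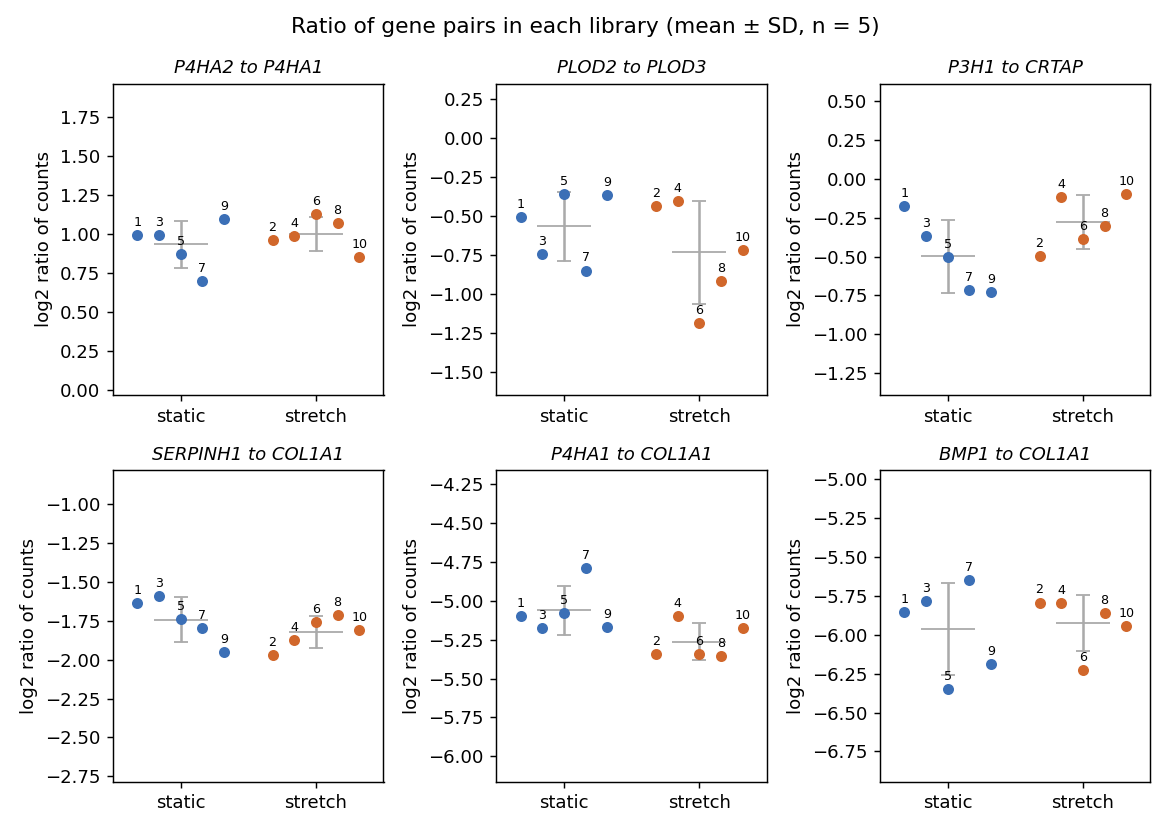
Log2 ratio of the counts of 2 genes within each library (y axes all span 2 log2 units), with library numbers and grey bars for mean ± SD (n = 5 each). In the P4HA1 to COL1A1 panel static 7 lies above the other 9 libraries. Stretch 2, 6 and 8 lie below the static ones, and stretch 10 is about level with static 3 and 9.

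BMP1, the secreted metalloproteinase that removes the C-propeptide (ENSG00000168487, chromosome 8, 22164736 to 22212326) was at 47.9, 51.2, 32.7, 47.8 and 42.0 CPM in the static libraries and at 64.3, 51.6, 47.2, 49.9 and 51.4 CPM in the stretch ones. Static 5 was low and stretch 2 high against the rest, and the other 8 libraries lay between 42.0 and 51.6 CPM. The means were 44.3 ± 7.26 and 52.9 ± 6.61 CPM (SD, n = 5 each), for a log2 fold change of 0.25 ± 0.13 (interval -0.034 to 0.53, edgeR adjusted p = 0.366). Its lowest and highest estimates among the alternatives were 0.16 (without static 5) and 0.31 (without static 3). The log2 ratio of BMP1 to COL1A1 was -5.85, -5.79, -6.35, -5.65 and -6.19 with static and -5.79, -5.80, -6.22, -5.86 and -5.95 with stretch medium. The groups shared one range, and the difference was 0.040 (SD 0.29 and 0.18; two-sided exact permutation p = 0.841, or 0.841 adjusted over the 6 ratios).

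Neither static 1 nor static 3 held a highest or lowest value among the 9 genes. Stretch 6 held the highest value of 3 genes (P4HA2, P4HA3 and SERPINH1) and the lowest of 1 (PLOD2). Static 7 held the lowest of 3 (P4HA2, P3H1 and SERPINH1), and static 5 the lowest of 2 (P4HA3 and BMP1). Of the 9 genes, 8 had their highest value in a stretch library, the exception being CRTAP in static 9, and 6 had their lowest in a static library. Over all genes tested these shares were 49.8% and 50.2%. PLOD2, P4HA1 and CRTAP were lowest in stretch 6, 8 and 10.

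Other genes of the pathway were taken from 4 lists and described by counts, with no test of a list. Pairs of means are given as static and then stretch, ± SD over 5 libraries. Of 21 genes for folding and modification of collagen in the ER, 20 were tested and 0 passed the threshold in edgeR. Their median log2 fold change was -0.071, with 9 above 0, and 2 had an unadjusted p under 0.05, both lower with stretch medium (8.37% of all genes were). PDIA4, a disulfide isomerase, was at 32.7 ± 6.63 and 23.7 ± 4.05 CPM, or -0.46 ± 0.16 (edgeR adjusted p = 0.180), and the lectin chaperone CANX at 410 ± 53.1 and 301 ± 106 CPM, or -0.45 ± 0.18 (edgeR adjusted p = 0.243). TMEM38B, an ER potassium channel needed for collagen assembly, was at -0.24 ± 0.13 (edgeR adjusted p = 0.383).

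Of 15 genes for export of procollagen from the ER, 13 were tested, with a median of -0.020 and 6 above 0. None passed in edgeR. At an unadjusted p under 0.05, 2 were higher (8.08% of all genes were) and 2 lower. SEC16A, a scaffold of ER exit sites, stood at 137, 156, 126, 135 and 127 CPM in the static and at 205, 173, 189, 163 and 149 CPM in the stretch libraries. Its groups overlapped through static 3 and stretch 10 alone, and its log2 fold change was 0.37 ± 0.11 (edgeR adjusted p = 0.139, DESeq2 adjusted p = 0.0432). The other higher gene was CREB3L2, a transcription factor for secretory genes, at 0.29 (named after its values were seen). SEC24D, a coat subunit that loads procollagen cargo, was the 1 gene of this list whose groups did not overlap (3.72% of all genes). Its log2 fold change was 0.18 ± 0.093 (edgeR adjusted p = 0.349), and it too was named after its values were seen. KLHL12, an adaptor that enlarges COPII coats, was at -0.32 ± 0.15 and TFG, which organises exit sites, at -0.38 ± 0.17 (edgeR adjusted p = 0.285 and 0.287).

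Of 11 genes for cleavage of procollagen and its enhancers, 5 were tested. All 5 had a log2 fold change above 0 (50.1% of all genes had) and 0 passed in edgeR, with a median of 0.27. FURIN and SPARC had an unadjusted p under 0.05, both higher with stretch medium, against 8.08% of all genes. FURIN, the convertase that activates the BMP1 precursor, was at 73.2 ± 12.3 and 96.0 ± 12.5 CPM, or 0.39 ± 0.13 (edgeR adjusted p = 0.167). SPARC, a collagen-binding glycoprotein, was at 0.27 ± 0.12 (edgeR adjusted p = 0.275). ADAMTS2, the main procollagen N-proteinase, was at 0.12 and was named after its values were seen. ADAMTS3, a related proteinase, was at 1.82 ± 0.968 and 2.33 ± 0.458 CPM, near the floor of 3 counts (0.355 to 0.709 CPM), and had an interval of -0.41 to 1.23. PCOLCE, which speeds the cleavage by BMP1, was at 216 ± 23.5 and 217 ± 39.3 CPM, and its log2 fold change of 0.011 ± 0.13 changed sign with the scaling (-0.0065 with upper quartile scaling; edgeR adjusted p = 0.976).

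Of 11 fibrillar collagen chains, 8 were tested, with a median of -0.13 and 2 above 0. Those 2, COL1A1 and COL27A1, both had an unadjusted p under 0.05, against 8.08% of all genes on that side, and 0 passed in edgeR. COL27A1 was at 22.8 ± 7.02 and 34.0 ± 8.12 CPM, or 0.57 ± 0.21 (edgeR adjusted p = 0.211), and COL5A2 at 352 ± 38.8 and 307 ± 35.4 CPM, or -0.20 ± 0.11 (edgeR adjusted p = 0.383).

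HIF targets were set beside P4HA1 and PLOD2. Of 25 listed, 24 were tested, with a median of 0.074 and 17 above 0 (50.1% of all genes were), and 0 passed in edgeR. At an unadjusted edgeR p under 0.05, 2 were higher (8.08% of all genes were) and 1 lower (8.37%). The hexokinase HK2 (0.45 ± 0.17) and the glucose transporter SLC2A1 (0.37 ± 0.15) had estimates above 0. PDK1, which restrains the use of pyruvate inside mitochondria, was at -0.55 ± 0.23 (edgeR adjusted p of 0.226, 0.241 and 0.248 for the 3). The estimates of P4HA1 and PLOD2 were 0.023 and -0.083. Whether HIF activity differed between the media was not tested.

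**Figure D4:**
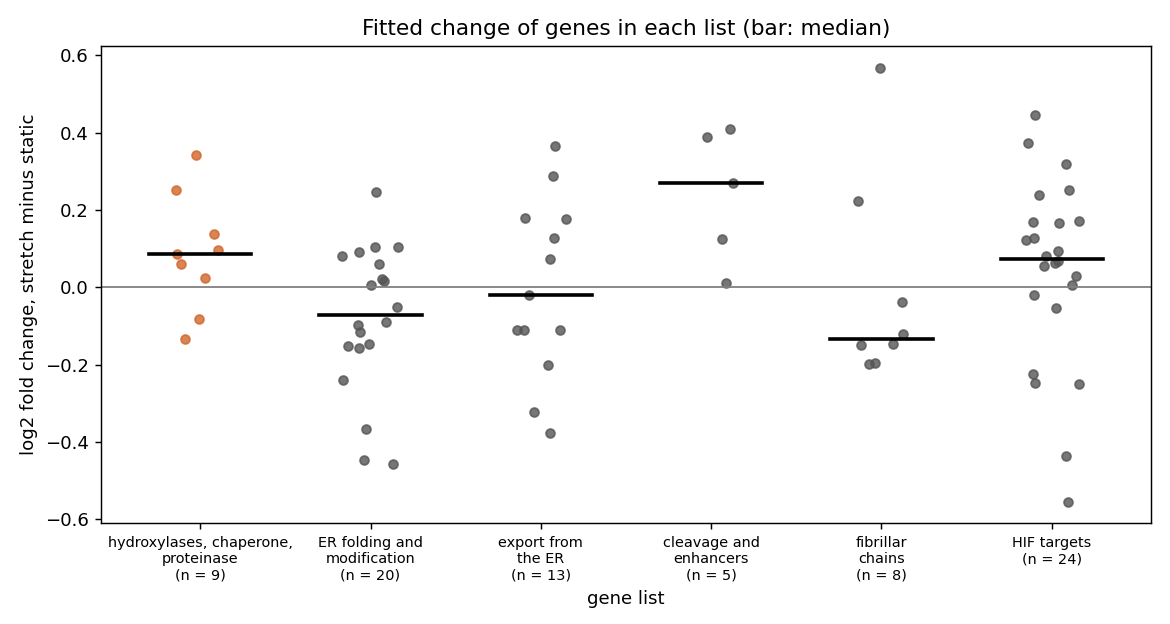
Fitted log2 fold change of each tested gene, stretch minus static medium (y axis), for the 9 genes (orange) and 5 lists (grey), with the median as a bar and the number tested under each name. The 9 genes lie between -0.13 and 0.34, within the spread of the ER folding, export and HIF target lists together.

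Libraries held 4231653 to 8455073 counts. All 14 fibroblast markers were tested, with 11 above 0 (median log2 fold change 0.13) and a summed level of 14141 to 15626 CPM (static) and 11543 to 16006 CPM (stretch). Of 20 markers of A549 and lung epithelium, 9 had values, and their sum was 40.1 to 50.6 CPM (static) and 44.4 to 53.9 CPM (stretch). Of these, 7 were tested, with a median of 0.077. Of 14 endothelial and blood cell markers, 7 had values, summing to 254 to 270.4 and 234 to 292 CPM, and 3 were tested, with a median of 0.018. Among these 3 marker lists 0 genes passed in edgeR. In such bulk libraries, fewer cells of a type and less RNA per cell cannot be told apart.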

How the data were processed

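RNA was isolated with Trizol and read through an Ion AmpliSeq transcriptome panel of short PCR targets, per the labels' protocols. Molecular identifiers are not mentioned, so counts may include PCR copies, and limits from counting error alone leave these out. The submitters' processing notes name fastp 0.20.1, Salmon 1.9 and GRCh38. For their roles, the annotation and strand, the setting is not given in the sources used. The authors deposited whole-number counts per Ensembl gene, unscaled. Columns were matched to samples by title number. Symbols were found for 13860 of 14054 identifiers. Positions are from GENCODE on GRCh38.

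Genes were kept by filterByExpr (minimum count 10, minimum total 15), scaled by TMM and tested in R 4.3.3 with edgeR 4.0.16 (quasi-likelihood test, medium as the only term, Benjamini-Hochberg over 10968 genes, threshold 0.05). The test was checked on simulated data. Ratios used counts plus 0.5 and exact two-sided permutation tests (252 arrangements, lowest possible p 0.00794), with adjustment over 6 ratios. Alternatives were other scalings and filters, DESeq2 1.42.0, limma-voom (limma 3.58.1), a pseudocount of 5, and each library left out. Within groups, the chi-square between 2 libraries was 6.05 to 24.5 times its degrees of freedom, more than counting error gives. No library was therefore merged with another, which does not show that they are separate cultures.

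The members and lists were chosen with earlier results of these data known. Named genes are the members, COL1A1, P4HB, PPIB and PCOLCE, the 3 smallest p-values of each non-marker list and any gene past the threshold.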

Additional observations from a re-analysis of the deposited data

Results flagged for a closer look

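In 3 of the 30 groups of 5 values checked (the 9 genes and 6 ratios in each medium), 1 library stood apart from the other 4 by more than 0.71 of the group's range. Chance marks about 1 group in 20. P4HA1 was at 70.7 CPM in stretch 8, against 83.7 to 88.0 CPM in the other stretch libraries. BMP1 was at 64.3 CPM in stretch 2, against 47.2 to 51.6 CPM in the others. The log2 ratio of P4HA1 to COL1A1 was -4.79 in static 7, against -5.17 to -5.08 in the other static libraries. Without static 7 the difference in that ratio was -0.13. Without stretch 8 the log2 fold change of P4HA1 was 0.078, and without stretch 2 that of BMP1 was 0.17.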

How the results depend on the processing

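No paired analysis was run, because the labels state no pairing. The title numbers alternate between the groups and none is shared, so a pairing can be neither shown nor excluded. Of the 9 genes, 0 passed the threshold under each of the 17 alternatives to the fit, and the smallest adjusted p was 0.223 (P4HA3 without static 3). Of the 9, the sign changed for PLOD2 alone, whose estimates spanned -0.17 (without stretch 4) to 0.031 (without stretch 6). Over all genes, edgeR called 0, DESeq2 269 and limma-voom 1, and with a library left out edgeR called 0 to 39 (39 without stretch 4, 2 without stretch 6, 1 without stretch 10). PCOLCE was at -0.0065 with upper quartile scaling and between -0.070 and 0.10 when single libraries were left out. The BMP1 to COL1A1 difference ranged from -0.056 (without static 5) to 0.12. The other ratios kept their sign, with P4HA1 to COL1A1 at -0.24 to -0.13. The planned ratio of PLOD2 to PLOD1 was not run. The other differences between media in ratios ranged from 0.0085 to 0.11 (P4HA2 to P4HA1), -0.25 to -0.053 (PLOD2 to PLOD3), 0.16 to 0.30 (P3H1 to CRTAP) and -0.13 to -0.044 (SERPINH1 to COL1A1) with 1 library left out.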
